A study of Mus musculus with 9 samples.

Results

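The ion and metal solute carriers of mouse brain vessels were followed as the genes whose symbols begin with Slc4a, Slc8a, Slc9a, Slc12a, Slc20a, Slc24a, Slc26a, Slc30a or Slc39a, 9 families in all. Slc4a5 was left out of the set. Without it, the array platform names 69 such genes by 136 probe sets that each name 1 gene. Each gene is represented by its brightest probe set on average, and 44 genes passed a filter of at least 4, on the log2 scale, on 3 arrays. They are 44 of the 12009 genes tested, out of 18194 named. The symbols also bring in 3 proteins that carry no ion themselves, the adaptor Slc4a1ap (kanadaptin) and the scaffolds Slc9a3r1 and Slc9a3r2.

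Expression was measured in mouse brain on 9 short oligonucleotide arrays, 3 per group. Microvascular fragments, short pieces of small vessels, came from NMRI embryos at embryonic day 18.5, and the embryonic brain tissue left without the fragments (rest of brain) came from NMRI embryos of that day too. The third group held microvascular fragments of 1-year-old adults, 2 males and 1 female on a mixed C57/SV129 background. A micro kit served to extract RNA from the embryonic samples and a mini kit from the adult ones, so age, strain and kit cannot be told apart between the fragment groups, and tissue is added to these between adult fragments and rest of brain. The sources used here give neither the sex of the embryos nor any pooling of animals nor how fragments were obtained. Rest of brain replicate 3 carries a description whose embryonic day differs from its other labels, and it was kept in its group. Every mean ± SD is over n = 3 arrays, which the labels call biological replicates.

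Solute carriers move ions and metals across membranes down, or coupled to, gradients that pumps set up. In brain endothelium and in the choroid plexus they handle bicarbonate, chloride, sodium, phosphate, calcium and trace metals between blood, brain and cerebrospinal fluid. Of the metal carriers, Slc39 proteins (ZIP) bring zinc and related metals into the cytosol and Slc30 proteins (ZnT) take them out of it, into organelles or out of the cell. When cytosolic zinc rises, the factor Mtf1 binds metal response elements, and in mouse the metallothionein genes and Slc30a1 are among its known targets.

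The promoters of 3 metal genes are shown because their levels are followed further on: the zinc exporter Slc30a1 and the importer Slc39a8, which stand out among the members by group, and Mt2, a metallothionein named for comparison. Each run is the 250 bases before the start of the gene on the plus strand of GRCm38.p6, from RefSeq. The windows are chr1:191906531-191906780 for Slc30a1, chr3:135825029-135825278 for Slc39a8 and chr8:94172368-94172617 for Mt2. Capitals mark the core of the metal response element, searched as TGCACNC or TGCGCNC on both strands, so a match on the minus strand is printed as its complement.
Slc30a1: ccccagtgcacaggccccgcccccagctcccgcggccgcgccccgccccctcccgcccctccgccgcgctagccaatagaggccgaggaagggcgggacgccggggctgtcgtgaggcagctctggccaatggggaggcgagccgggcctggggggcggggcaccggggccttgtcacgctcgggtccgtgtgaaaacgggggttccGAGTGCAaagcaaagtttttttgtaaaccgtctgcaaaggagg
Slc39a8: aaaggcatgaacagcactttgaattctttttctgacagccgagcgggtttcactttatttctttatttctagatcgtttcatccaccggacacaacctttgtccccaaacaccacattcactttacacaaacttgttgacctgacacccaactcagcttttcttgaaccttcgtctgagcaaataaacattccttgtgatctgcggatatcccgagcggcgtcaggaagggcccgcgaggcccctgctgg
Mt2: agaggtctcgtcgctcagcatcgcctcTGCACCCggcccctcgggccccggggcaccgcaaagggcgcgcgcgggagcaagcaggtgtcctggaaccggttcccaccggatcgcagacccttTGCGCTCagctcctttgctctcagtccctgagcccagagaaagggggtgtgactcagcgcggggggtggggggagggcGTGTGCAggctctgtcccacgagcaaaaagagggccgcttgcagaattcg
The Slc30a1 window holds 1 match, on the minus strand with its first base at position -43, and the Mt2 window holds 3. RefSeq lists a pair of starts for Slc39a8, and the printed window, of the first, holds 0 while that of the second holds 1, at -19. Such a match occurs in 21.4% of the 32851 windows RefSeq gives here, and in 17 of the 47 windows of members (36.2%). A match describes letters and is not a site shown to be bound, and of the 44 members 35 had a window.

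GCRMA, which corrects probe background by base composition and equalizes the arrays, gave the log2 intensities. Group differences are given ± SE from a limma fit over all 12009 genes, and a member is called higher or lower at an adjusted p under 0.05, adjusted over all genes tested. A value under 4 was treated as at background, and where a group was under 4 on every array the fold is a lower bound set against 4. Probe sets differ in how well they bind, so levels are compared between groups and not between genes. In bulk samples fewer cells of a type and less RNA per cell cannot be told apart.

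Arrays of a group resembled each other over the tested genes, with a Pearson's r of 0.984 to 0.992 in embryonic fragments, 0.990 to 0.993 in rest of brain and 0.978 to 0.987 in the adult. The 7 endothelial markers tested were all higher in embryonic fragments than in rest of brain, with a mean level of 13.13 to 13.37 per array against 5.14 to 5.68, and 13.10 to 13.34 in adult fragments. Pericyte markers were higher for 5 of 5 and microglial and macrophage markers for 7 of 7, while 8 of 8 neuronal, 6 of 6 astrocyte and 6 of 6 fibroblast markers were lower. Between the fragment groups, 4 of 5 smooth muscle, 5 of 6 astrocyte and 4 of 5 choroid plexus markers were higher in the adult, and 5 of 8 neuronal markers were lower. Embryonic fragments replicate 1 stood apart from the other embryonic fragments in microglial and choroid plexus markers. Fitted differences printed here whose fold moved by over 1.5 times without it are given with and without it. Small differences moved less in fold but could change sign, as Slc12a4 did against rest of brain (-0.18, and 0.01 without it, neither called).

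In embryonic fragments against rest of brain, 12 members (27.3%) were higher and 16 (36.4%) lower, where 28.9% of all tested genes were called higher and 37.2% lower. Together 63.6% of the members were called, beside 66.1% of all genes. The median difference over the members was -0.13, beside -0.10 over all tested genes. Higher in the vessels were the metal carriers Slc39a8, Slc30a1 and Slc39a10, the sulfate carrier Slc26a2, the chloride carriers Slc12a7 and Slc12a2, the endosomal exchanger Slc9a9 and the scaffold Slc9a3r2. Lower were the bicarbonate carriers Slc4a3, Slc4a4 and Slc4a10, both sodium-calcium exchangers, the zinc importers Slc39a6 and Slc39a12 and the neuronal chloride exporter Slc12a5.

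Between adult and embryonic fragments 16 members (36.4%) were higher in the adult and 9 (20.5%) lower, where 27.4% of all tested genes were called higher and 29.7% lower. Together 56.8% of the members were called, beside 57.1% of all genes. The median difference was 0.20 over the members and -0.02 over all genes. Of the 6 Slc4 members 4 were higher in the adult, and so were Slc9a2, Slc39a12 and Slc24a3, while Slc39a8, Slc26a2, Slc4a1 and Slc12a5 were lower. Both comparisons share the embryonic fragments, so for each member their values are set side by side.

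**Figure D1:**
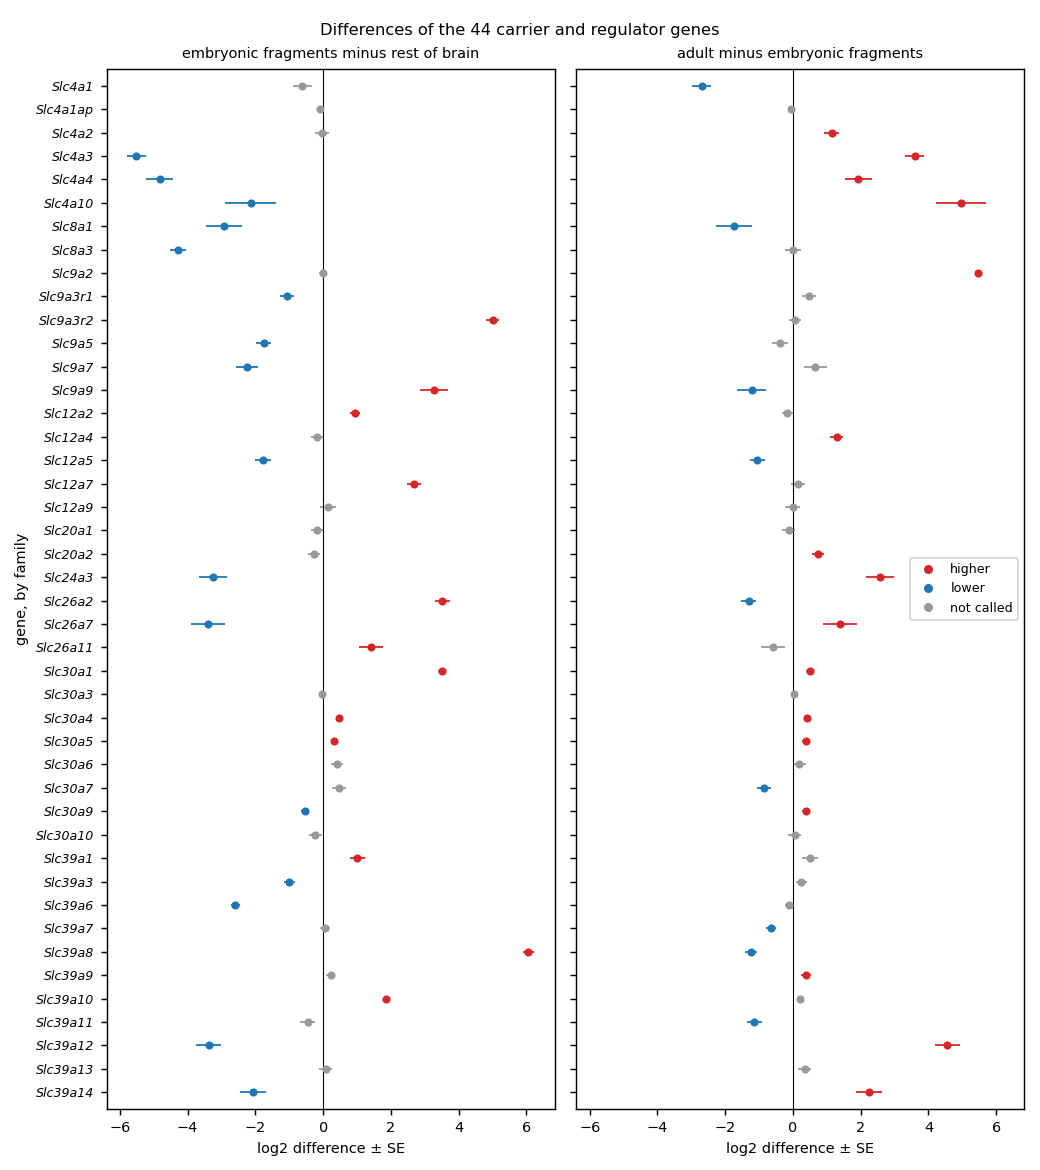
Log2 differences with their SE for the 44 members, ordered by family, in embryonic fragments minus rest of brain (left) and adult minus embryonic fragments (right). Red points were called higher, blue lower and grey not called; Slc39a8 lies at 6.06 on the left and -1.24 on the right, and Slc9a2 at 0.00 and 5.47.

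Slc39a8 (ZIP8), an importer of zinc, manganese and iron, had values of 14.49, 14.28 and 14.41 in embryonic fragments, 8.67, 8.16 and 8.16 in rest of brain and 12.98, 13.17 and 13.31 in adult fragments. Embryonic fragments were highest, adult fragments lay between, and no groups overlapped. It was 66.9-fold higher in embryonic fragments than in rest of brain (6.06 ± 0.17, adjusted p = 6.19e-09) and 2.36-fold lower in adult than in embryonic fragments (-1.24 ± 0.17, adjusted p = 0.000265). A second probe set of the gene, with a mean at background in rest of brain (2.09), was also higher in embryonic fragments (mean 8.18, adjusted p = 1.86e-06) and lower in the adult (-2.95, adjusted p = 0.000315), in a fit over all probe sets.

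Slc39a10 (ZIP10), a zinc importer of the plasma membrane, measured 15.24, 15.03 and 15.30 in embryonic fragments, 13.31, 13.26 and 13.39 in rest of brain and 15.45, 15.37 and 15.42 in adult fragments. Both fragment groups lay above rest of brain on every array. The embryonic difference was 1.87 ± 0.11 (3.66-fold, adjusted p = 5.20e-07), and that between the ages was 0.22 ± 0.11 (adjusted p = 0.104). Its close relative Slc39a6 (ZIP6) ran the other way, with 10.84, 11.19 and 11.16 in embryonic fragments, 13.58, 13.61 and 13.77 in rest of brain and 11.14, 10.82 and 10.90 in adult fragments. Fragments of both ages were low and overlapped each other. Slc39a6 was 6.02-fold lower in embryonic fragments than in rest of brain (-2.59 ± 0.14, adjusted p = 3.67e-07) and differed by -0.11 ± 0.14 between the ages (adjusted p = 0.538). Another of its probe sets was lower in the adult (adjusted p = 4.28e-05), from a mean of 5.56 in embryonic fragments to one at background (3.33).

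Slc39a12 (ZIP12), a zinc importer of the nervous system, gave 5.44, 6.97 and 6.45 in embryonic fragments, 10.02, 9.72 and 9.27 in rest of brain and 10.89, 10.67 and 10.98 in adult fragments. The embryonic fragments were low on every array and the adult ones were the highest group. The differences were -3.38 ± 0.36 (10.4-fold lower, adjusted p = 3.56e-05) against rest of brain and 4.56 ± 0.36 (23.5-fold higher in the adult, adjusted p = 1.21e-05) between the ages. Of 6 tested astrocyte markers 5 were higher in adult than in embryonic fragments as it was, and 1, Aldh1l1, was lower. Against rest of brain 5 of the 6 were lower in adult fragments, and only Slc1a2 was higher, as Slc39a12 was. Slc1a2, the glutamate carrier of astrocytes, read 2.66, 5.35 and 2.65 in embryonic fragments, 10.59, 10.77 and 9.52 in rest of brain and 12.88, 11.92 and 12.26 in adult fragments. The summed level of the 7 astrocyte markers was 9.25 to 10.30, 13.70 to 14.21 and 12.67 to 13.35 on the log2 scale in these groups, with Gfap under 4 on every embryonic fragment array, and the part of astrocyte RNA in the result was not tested.

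Slc39a1 (ZIP1), a widely expressed zinc importer, had 10.30, 10.30 and 10.32 in embryonic fragments, 9.40, 9.40 and 9.08 in rest of brain and 10.85, 11.31 and 10.30 in adult fragments. Rest of brain was lowest, and the fragment groups overlapped. It was 2.02-fold higher in embryonic fragments than in rest of brain (1.01 ± 0.23, adjusted p = 0.00382), and the ages differed by 0.51 ± 0.23, which was not called (adjusted p = 0.0865). Slc39a14 (ZIP14), which imports manganese, iron and zinc, gave 3.72, 4.62 and 3.28 in embryonic fragments, 5.67, 6.31 and 5.87 in rest of brain and 6.07, 5.57 and 6.71 in adult fragments. Embryonic fragments lay under 4 on 2 of 3 arrays, so its differences of -2.07 ± 0.39 (adjusted p = 0.00128) and 2.25 ± 0.39 (adjusted p = 0.00115) lean on values at background. Slc39a3 (ZIP3), another zinc importer, was lower in embryonic fragments by its chosen probe set (8.01, 7.69 and 7.97 against 8.97, 8.80 and 8.92 in rest of brain, -1.0 ± 0.16, adjusted p = 0.000427). A second probe set gave 0.25 (adjusted p = 0.367).

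Of the other ZIP members, 3 were called between the ages and none between embryonic tissues. Slc39a7 (ZIP7), which releases zinc from the endoplasmic reticulum, was 1.58-fold lower in adult than in embryonic fragments (-0.66 ± 0.15, adjusted p = 0.00495) and differed from rest of brain by 0.06 ± 0.15 in the embryo (adjusted p = 0.736). Slc39a11 (ZIP11) measured 9.28, 9.27 and 9.57 in embryonic fragments, 9.74, 9.87 and 9.85 in rest of brain and 8.03, 7.88 and 8.79 in adult fragments. No adult array reached the embryonic ones, and it was 2.21-fold lower in the adult (-1.14 ± 0.22, adjusted p = 0.00238). Against rest of brain the embryonic difference of -0.45 ± 0.22 was not called (adjusted p = 0.111) but was with the replicate number as a block in the fit of the 2 groups (adjusted p = 0.0208). Slc39a9 (ZIP9) was 0.39 ± 0.14 higher in the adult (adjusted p = 0.0475), a call lost under 15 of 21 alternative settings. Slc39a13 (ZIP13) was called in neither comparison.

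Slc30a1 (ZnT1), the zinc exporter of the plasma membrane, had 14.05, 13.91 and 13.86 in embryonic fragments, 10.39, 10.34 and 10.56 in rest of brain and 14.39, 14.65 and 14.31 in adult fragments. Every fragment array lay far above every rest of brain array. The embryonic difference was 3.51 ± 0.12 (11.4-fold, adjusted p = 2.81e-08), and a second probe set gave 4.44. Between the ages the probe sets went opposite ways, with 0.51 ± 0.12 (adjusted p = 0.00758) for the chosen one and -0.65 (adjusted p = 0.0471) for the second, so no direction is given for the adult. Its promoter is the one printed early on with 1 core of the metal response element.

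Between the embryonic tissues the chosen probe sets of the other Slc30 members differed by less. Slc30a4, which loads zinc into vesicles, was 0.47 ± 0.10 higher in embryonic fragments than in rest of brain (adjusted p = 0.00265) and 0.42 ± 0.10 higher in adult than in embryonic fragments (adjusted p = 0.00626). Slc30a5, a zinc carrier of the early secretory pathway that pairs with Slc30a6, was higher by 0.33 ± 0.11 and 0.37 ± 0.11 (adjusted p = 0.0280 and 0.0202). The first of these calls was lost when any of 5 arrays was left out (adjusted p = 0.0620 to 0.0856) and the second under 2 settings (0.0652 and 0.0746). Slc30a6 differed by 0.40 ± 0.18 in the embryo (adjusted p = 0.0804), and was called with the replicate number as a block (adjusted p = 0.0197 in the 2 groups). Slc30a9, a mitochondrial zinc carrier, was lower in embryonic fragments than in rest of brain (-0.53 ± 0.12, adjusted p = 0.00381) and 0.38 ± 0.12 higher in the adult (adjusted p = 0.0241, 0.0501 to 0.0785 under 5 settings).

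Slc30a7, a zinc carrier of the Golgi region, was 1.81-fold lower in adult than in embryonic fragments (-0.86 ± 0.21, adjusted p = 0.00679). In the embryo its chosen probe set gave 0.47 ± 0.21 (adjusted p = 0.0736, and 0.0122 with the replicate block in the 2 groups), and a second probe set gave 2.16 (adjusted p = 5.80e-07). Slc30a10, a manganese exporter, and Slc30a3, the carrier that fills synaptic vesicles with zinc, were called in none of the 3 comparisons by their chosen probe sets. A second probe set of Slc30a10 was lower in adult than in embryonic fragments (-0.44, adjusted p = 0.0191), in a fit over all probe sets. Slc30a3 lay between 5.04 and 5.19 on all 9 arrays.

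**Figure D2:**
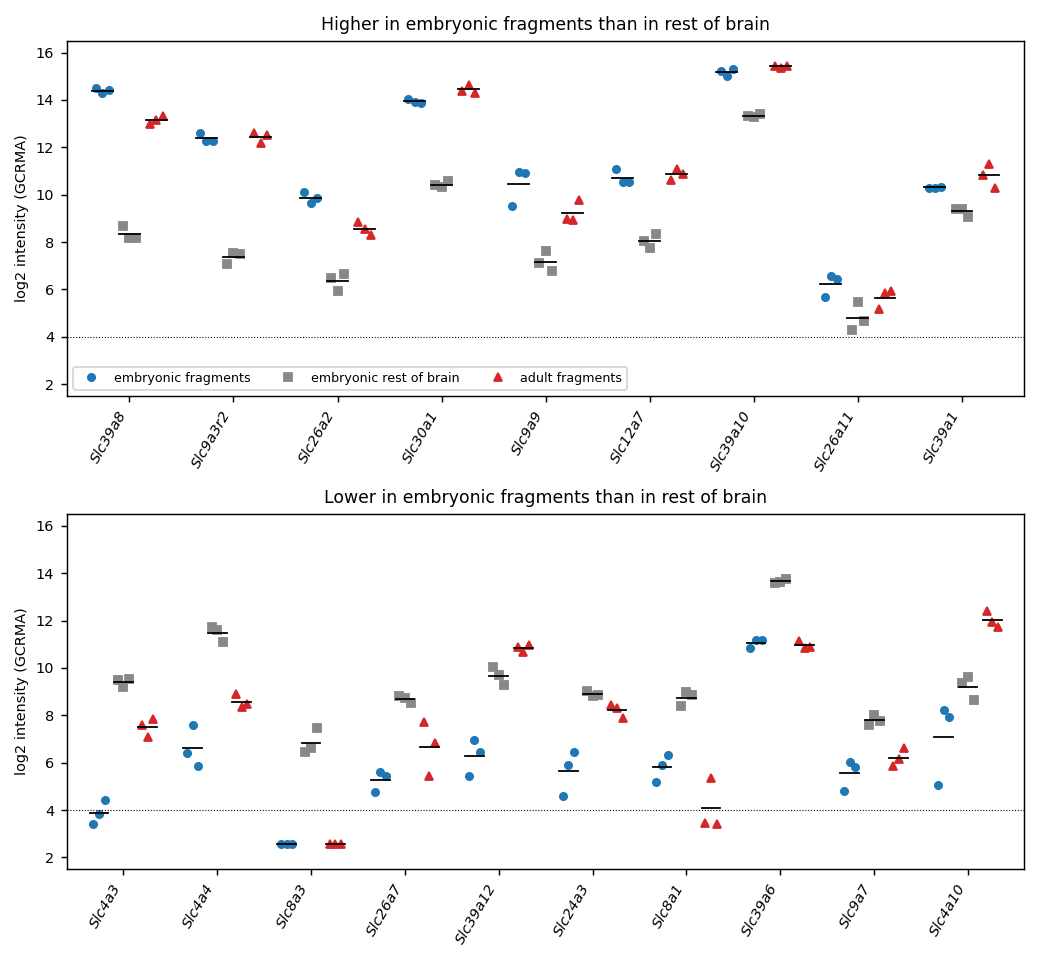
Log2 intensity on each array for members chosen by their difference between embryonic fragments and rest of brain, by group, with black bars for the mean of 3 arrays and a dotted line at 4. Embryonic fragments of Slc39a8 sit at 14.28 to 14.49 and rest of brain at 8.16 to 8.67.

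Among the bicarbonate carriers, Slc4a4 (NBCe1), the sodium bicarbonate cotransporter of astrocytes, gave 6.42, 7.60 and 5.88 in embryonic fragments, 11.73, 11.59 and 11.08 in rest of brain and 8.89, 8.34 and 8.46 in adult fragments. The groups did not overlap, and adult fragments lay between the embryonic tissues. It was 28.5-fold lower in embryonic fragments than in rest of brain (-4.83 ± 0.40, adjusted p = 6.80e-06) and 3.81-fold higher in adult than in embryonic fragments (1.93 ± 0.40, adjusted p = 0.00328). Its 3 other tested probe sets gave 0.47 to 0.76 between the ages and were not called, 1 of them with means under 4 in both fragment groups. Of the astrocyte markers, 6 of 6 were lower in embryonic fragments than in rest of brain and 5 of 6 higher in the adult than in the embryonic fragments, and their part was not tested.

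Slc4a10 (NCBE), a sodium-driven bicarbonate carrier of neurons and choroid plexus, measured 5.04, 8.24 and 7.91 in embryonic fragments, 9.36, 9.62 and 8.63 in rest of brain and 12.41, 11.95 and 11.71 in adult fragments. The adult arrays were the highest, and embryonic fragments replicate 1 was far below the other embryonic fragments. The adult difference was 4.96 ± 0.75 (31.2-fold, adjusted p = 0.000534), and 3.95 ± 0.32 without that array (adjusted p = 4.12e-05), or 5.55 without embryonic fragments replicate 2. Against rest of brain the embryonic difference of -2.14 ± 0.75 (adjusted p = 0.0315) was -1.13 ± 0.32 without it (adjusted p = 0.0155) and -2.73 without replicate 2, and was not called with the replicate block in the 2 groups (adjusted p = 0.0700). Folr1, a folate receptor of choroid plexus, was lowest on the same array, with 6.01, 8.89 and 8.71 in embryonic fragments, 9.10, 9.22 and 8.64 in rest of brain and 10.23, 10.40 and 10.84 in adult fragments. The summed level of the 6 choroid plexus and ependymal markers measured was 15.70 to 16.21, 16.18 to 16.27 and 16.75 to 16.83. Nearly all of that sum was Ttr, at 15.69 to 16.20, 16.14 to 16.23 and 16.72 to 16.79, so it shows little of the others. Otx2 read 5.87 to 7.72, 9.92 to 10.38 and 8.91 to 9.28 in the same groups. Kl, Foxj1 and Ccdc153 were under 4 on every embryonic fragment array and Foxj1 and Ccdc153 on every adult one. The part of these markers in the result was not tested.

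Slc4a3 (AE3), a chloride-bicarbonate exchanger of excitable cells, had 3.41, 3.85 and 4.43 in embryonic fragments, 9.48, 9.18 and 9.53 in rest of brain and 7.57, 7.07 and 7.83 in adult fragments. Embryonic fragments were at background on 2 of 3 arrays, so the differences of -5.51 ± 0.28 against rest of brain (adjusted p = 2.55e-07) and 3.60 ± 0.28 between the ages (adjusted p = 1.08e-05) lean on such values. Slc4a2 (AE2), the widely expressed exchanger of that kind, read 8.66, 9.13 and 9.26 in embryonic fragments and 10.35, 9.92 and 10.20 in adult ones, without overlap. It was 2.20-fold higher in the adult (1.14 ± 0.21, adjusted p = 0.00152), while rest of brain, at 9.26, 9.18 and 8.74, differed from embryonic fragments by -0.04 ± 0.21 (adjusted p = 0.886).

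Slc4a1 (band 3), the anion exchanger of red cells, gave 6.76, 6.69 and 7.38 in embryonic fragments, 6.97, 7.66 and 8.02 in rest of brain and 3.95, 4.38 and 4.40 in adult fragments. Adult arrays lay at or near background, and the difference between the ages was -2.70 ± 0.29 (adjusted p = 7.78e-05). Its probe set is of a kind whose probes can match other transcripts, and another probe set of the gene lay near 4 in all groups (-0.12 between the ages, adjusted p = 0.404). In the embryo the difference of -0.61 ± 0.29 was not called (adjusted p = 0.0973) but was with the replicate number as a block (adjusted p = 0.0373 in the 2 groups). Alas2, the haem synthesis enzyme of red cells and the 1 of 3 measured red cell markers that was tested, ranged from 8.17 to 11.02 on the 6 embryonic arrays and read 3.03, 3.29 and 3.29 in adult fragments. The summed level of those markers was 8.24 to 10.02 in embryonic fragments, 9.01 to 11.03 in rest of brain and 4.44 to 4.57 in adult fragments, with Hba-a1 and Epb42 under 4 on all arrays, and their part was not tested. The adaptor Slc4a1ap, whose probe set had the highest mean of this family in embryonic fragments, read 9.24, 9.20 and 9.24 there, and was called in none of the 3 comparisons.

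Of the sodium-proton exchangers, Slc9a2 (NHE2), an epithelial form, was at background in the embryo, with 2.70, 2.65 and 2.66 in fragments and 2.70, 2.63 and 2.70 in rest of brain. Adult fragments read 8.06, 8.05 and 8.32. It was at least 17.6-fold higher in adult than in embryonic fragments. As it passed the filter only through the adult arrays, no p-value is given for it. Kl (klotho), a choroid plexus marker, lay between 2.39 and 2.44 on the 6 embryonic arrays and at 9.35, 9.25 and 9.17 in adult fragments. Other markers of that list were well above background in rest of brain, where Slc9a2 was not, with Ttr at 16.14 to 16.23, Folr1 at 8.64 to 9.22 and Otx2 at 9.92 to 10.38. The part of choroid plexus RNA in the result was not tested.

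Slc9a9 (NHE9), an exchanger of recycling endosomes, had 9.52, 10.94 and 10.91 in embryonic fragments, 7.12, 7.62 and 6.80 in rest of brain and 8.99, 8.95 and 9.78 in adult fragments. By this probe set fragments lay above rest of brain at both ages, and the fragment groups overlapped. It was 9.71-fold higher in embryonic fragments than in rest of brain (3.28 ± 0.42, adjusted p = 0.000111), and the difference was 3.75 ± 0.31 without embryonic fragments replicate 1 (adjusted p = 1.75e-05). The age difference of -1.22 ± 0.42 (adjusted p = 0.0331) was lost under 7 of 21 settings. A second probe set of Slc9a9 had lower means, 5.96 in embryonic fragments, 4.58 in rest of brain and 4.79 in adult fragments. It gave 1.38 in the embryo (adjusted p = 0.0354) and -1.17 between the ages (adjusted p = 0.0719), in a fit over all probe sets. With all its probe sets averaged, Slc9a9 was not called in adult fragments against rest of brain (0.56, adjusted p = 0.0588). Cd68, a macrophage marker, read 9.60, 11.82 and 11.94 in embryonic fragments, 7.45, 7.28 and 7.52 in rest of brain and 10.39, 10.68 and 11.61 in adult fragments. All 7 microglial and macrophage markers were higher in embryonic fragments than in rest of brain, none under 4 on all arrays of a group. Between the ages 1 of the 7 was lower in the adult and none higher. That was Mrc1, with 14.13, 14.95 and 15.36 in embryonic and 10.20, 10.13 and 9.58 in adult fragments. The summed level was 15.45 to 16.81 in embryonic fragments, 13.06 to 13.30 in rest of brain and 16.18 to 16.71 in adult fragments. The part of these markers was not tested.

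Slc9a7 (NHE7), of the trans-Golgi network, was lower in embryonic fragments (4.80, 6.04 and 5.82) than in rest of brain (7.60, 8.0 and 7.78), without overlap. The difference was -2.24 ± 0.33 (4.72-fold, adjusted p = 0.000281). Slc9a5 (NHE5), a brain form, was 3.38-fold lower (-1.76 ± 0.23, adjusted p = 0.000123) from a mean of 5.89 ± 0.29 in rest of brain. Neither was called between the ages.

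The scaffolds Slc9a3r1 (NHERF1) and Slc9a3r2 (NHERF2), which tether exchangers and receptors under the membrane through PDZ domains, went opposite ways in the embryo. Slc9a3r2 had 12.62, 12.26 and 12.26 in embryonic fragments, 7.08, 7.54 and 7.51 in rest of brain and 12.61, 12.20 and 12.53 in adult fragments. The fragment groups overlapped and both lay far above rest of brain. It was 32.1-fold higher in embryonic fragments (5.0 ± 0.18, adjusted p = 2.82e-08), 4 of its 6 probe sets gave 4.41 to 5.20 and the others were at background in rest of brain by their means (2.98 and 3.25), and the ages differed by 0.07 ± 0.18 (adjusted p = 0.780). Slc9a3r1 read 9.41, 9.97 and 9.80 in embryonic fragments against 10.86, 10.91 and 10.59 in rest of brain. Every fragment array lay lower (-1.06 ± 0.20, 2.08-fold, adjusted p = 0.00151).

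The cation-chloride cotransporters of the Slc12 family set chloride and volume of cells. Slc12a2 (NKCC1), which takes chloride up with sodium and potassium, measured 13.14, 13.40 and 13.78 in embryonic fragments, 12.39, 12.60 and 12.51 in rest of brain and 13.33, 13.22 and 13.27 in adult fragments. Fragments lay above rest of brain without overlap (0.94 ± 0.16, 1.92-fold, adjusted p = 0.000770). The ages differed by -0.17 ± 0.16 (adjusted p = 0.412), while another of its probe sets gave -1.03 (adjusted p = 0.00288). Slc12a7 (KCC4), a potassium-chloride exporter, gave 11.09, 10.55 and 10.54 in embryonic fragments, 8.04, 7.75 and 8.33 in rest of brain and 10.64, 11.10 and 10.86 in adult fragments. Both fragment groups were high, and the embryonic difference was 2.69 ± 0.21 (6.44-fold, adjusted p = 4.53e-06).

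Slc12a5 (KCC2), the chloride exporter of neurons, had 7.95, 8.22 and 7.84 in embryonic fragments, 9.92, 9.66 and 9.78 in rest of brain and 6.41, 7.18 and 7.28 in adult fragments. The 3 groups did not overlap and adult fragments were lowest. It was 3.44-fold lower in embryonic fragments than in rest of brain (-1.78 ± 0.23, adjusted p = 0.000121) and 2.07-fold lower in adult than in embryonic fragments (-1.05 ± 0.23, adjusted p = 0.00425). The 8 neuronal markers summed to 10.14 to 11.21, 15.79 to 16.12 and 9.80 to 10.44 in embryonic fragments, rest of brain and adult fragments. Nearly all of the adult sum was Stmn2, at 10.28, 9.67 and 10.26, so it shows little of the others. Between the ages 5 of the 8 were lower in the adult and 1, Stmn2, was higher. Elavl3, Tubb3, Dcx and Slc17a6 were under 4 on every adult array. Tubb3, for example, read 8.19, 8.93 and 8.65 in embryonic and 3.34, 3.85 and 3.80 in adult fragments. The part of these markers was not tested. Slc12a4 (KCC1), a widely expressed potassium-chloride exporter, was 7.47, 8.09 and 7.99 in embryonic and 9.15, 8.91 and 9.37 in adult fragments, without overlap. It was 2.45-fold higher in the adult (1.29 ± 0.19, adjusted p = 0.000474) and not called between the embryonic tissues (-0.18 ± 0.19, adjusted p = 0.450).

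The calcium exchangers Slc8a1, Slc8a3 and Slc24a3, which remove calcium from the cytosol, were all lower in embryonic fragments than in rest of brain. Slc8a1 (NCX1) read 5.20, 5.92 and 6.32 in embryonic fragments, 8.38, 8.98 and 8.87 in rest of brain and 3.45, 5.35 and 3.41 in adult fragments. Rest of brain was clear of both fragment groups, which overlapped. Its embryonic difference was -2.93 ± 0.52 (7.63-fold, adjusted p = 0.000928), and that between the ages, -1.74 ± 0.52 (adjusted p = 0.0189), leans on 2 adult arrays under 4, was lost under 7 settings and came to -2.38 without adult fragments replicate 2. Slc8a3 (NCX3) was at background on all 6 fragment arrays (2.55 to 2.56) and read 6.45, 6.62 and 7.48 in rest of brain. It was at least 7.19-fold lower in embryonic fragments. Only through rest of brain did it pass the filter, so no p-value is given for it. Slc24a3 (NCKX3), which exchanges sodium for calcium and potassium, gave 4.59, 5.89 and 6.44 in embryonic fragments, 9.04, 8.80 and 8.87 in rest of brain and 8.44, 8.30 and 7.89 in adult fragments. Embryonic fragments were low on every array. It was 9.59-fold lower there than in rest of brain (-3.26 ± 0.41, adjusted p = 9.90e-05) and 5.93-fold higher in adult than in embryonic fragments (2.57 ± 0.41, adjusted p = 0.000699).

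**Figure D3:**
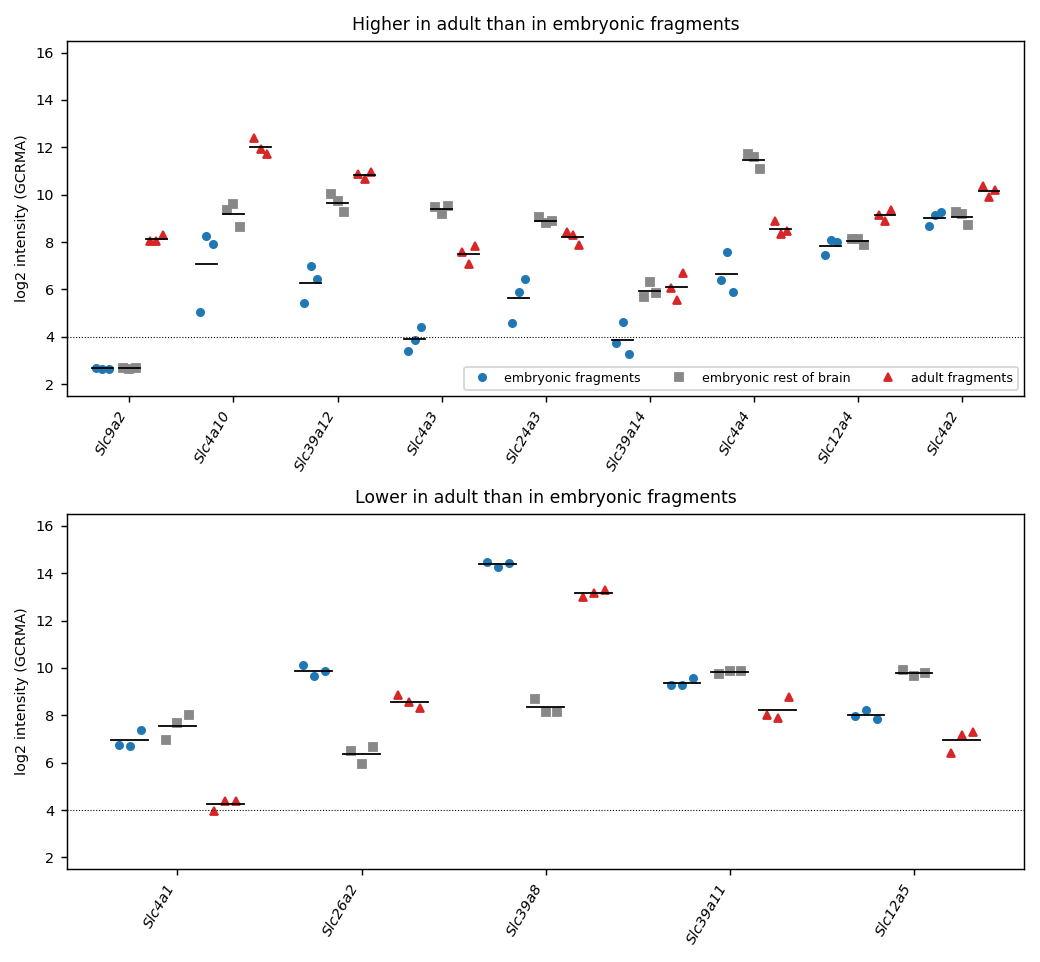
Log2 intensity on each array for members chosen by their difference between adult and embryonic fragments, by group, with black bars for the mean of 3 arrays and a dotted line at 4. Slc9a2 is under 4 on all 6 embryonic arrays and at 8.05 to 8.32 in adult fragments.

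Of the anion carriers, Slc26a2, the sulfate carrier that supplies proteoglycan synthesis, had 10.12, 9.66 and 9.85 in embryonic fragments, 6.48, 5.93 and 6.66 in rest of brain and 8.84, 8.55 and 8.29 in adult fragments. Embryonic fragments were highest and the groups did not overlap. It was 11.4-fold higher in embryonic fragments than in rest of brain (3.52 ± 0.23, adjusted p = 1.15e-06) and 2.48-fold lower in the adult (-1.31 ± 0.23, adjusted p = 0.00112). Slc26a11, another sulfate and chloride carrier, was 2.68-fold higher in embryonic fragments (5.70, 6.55 and 6.45) than in rest of brain (4.29, 5.47 and 4.69), without overlap (1.42 ± 0.35, adjusted p = 0.00663). Slc26a7, a chloride and bicarbonate carrier, read 4.77, 5.60 and 5.45 in embryonic fragments, 8.81, 8.73 and 8.52 in rest of brain and 7.71, 5.44 and 6.82 in adult fragments. It was 10.6-fold lower in embryonic fragments (-3.41 ± 0.50, adjusted p = 0.000278). Adult and embryonic fragments overlapped, and that call (1.38 ± 0.50, adjusted p = 0.0414) was lost under 12 of 21 settings and came to 1.99 without adult fragments replicate 2.

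The phosphate carriers, whose human SLC20A2 is known for calcified brain vessels when it is lost, were called in no comparison of embryonic tissues. Slc20a2 (PiT2) measured 8.84, 8.78 and 9.20 in embryonic fragments, 9.29, 9.11 and 9.20 in rest of brain and 10.01, 9.35 and 9.72 in adult fragments. Adult arrays lay above embryonic fragments without overlap, 1.68-fold higher (0.75 ± 0.18, adjusted p = 0.00740). A second probe set of Slc20a2 lay near background, with means of 4.17 in embryonic and 4.24 in adult fragments. It gave 0.08 between the ages (adjusted p = 0.647), in a fit over all probe sets. Slc20a1 (PiT1) read 10.56, 10.42 and 9.90 in embryonic fragments, with differences of -0.19 ± 0.18 from rest of brain (adjusted p = 0.382) and -0.13 ± 0.18 for the adult (adjusted p = 0.564). A second probe set of Slc20a1 was called higher in embryonic fragments than in rest of brain (1.64, adjusted p = 0.0150) and lower in the adult (adjusted p = 0.00266), where its mean was at background (3.52).

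Against rest of brain, 19 members (43.2%) were higher in adult fragments and 14 (31.8%) lower, where 33.1% of all tested genes were called higher and 42.9% lower. Together 75.0% of the members were called, beside 76.0% of all genes. Among the members higher in adult fragments were Slc9a2 (at least 17.6-fold higher), Slc9a3r2 (33.7-fold, 5.07 ± 0.18, adjusted p = 1.89e-08), Slc39a8 (28.3-fold, 4.82 ± 0.17, adjusted p = 1.64e-08) and Slc30a1 (16.2-fold, 4.02 ± 0.12, adjusted p = 9.13e-09). Slc39a12 and Slc4a10, lower in embryonic fragments than in rest of brain, were higher in adult ones (1.17 ± 0.36 and 2.82 ± 0.75, adjusted p = 0.0157 and 0.00750). Without rest of brain replicate 3 the call of Slc39a12 was lost (0.97 ± 0.40, adjusted p = 0.0616). Slc8a1 (-4.67 ± 0.52, adjusted p = 3.69e-05, with 2 adult arrays under 4), Slc8a3 (at least 7.19-fold), Slc4a1 (-3.31 ± 0.29, adjusted p = 7.92e-06, with 1 adult array under 4), Slc4a4 (-2.90 ± 0.40, adjusted p = 0.000160), Slc4a3 (-1.91 ± 0.28, adjusted p = 0.000227), Slc12a5 (-2.83 ± 0.23, adjusted p = 4.36e-06) and Slc39a6 (-2.70 ± 0.14, adjusted p = 2.13e-07) were lower. Without probe sets whose names carry the suffix s, x or a, the call of Slc4a1 was lost (-0.13, adjusted p = 0.319). Tissue, age, strain and kit differ together here.

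**Figure D4:**
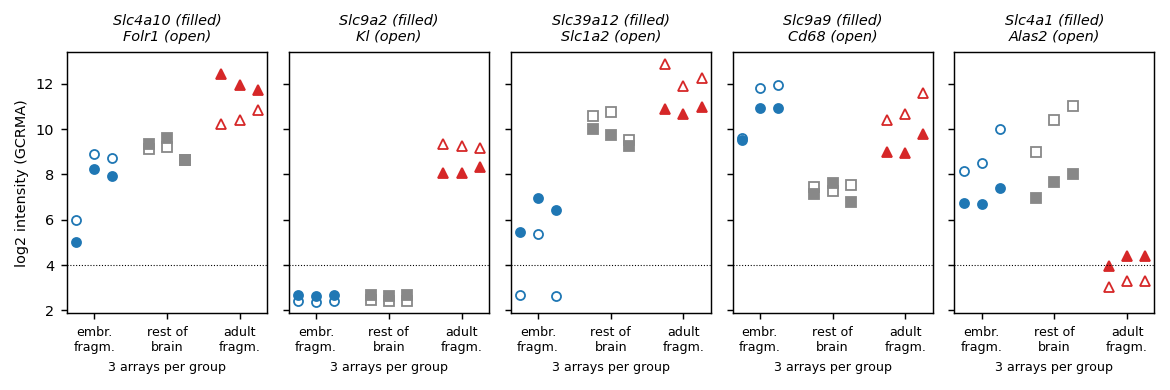
Log2 intensity on each array for members (filled) beside a marker chosen for each from a cell type list (open), by group, with a dotted line at 4. A marker need not follow its member in every comparison, and others of its list can differ. Cd68, shown with Slc9a9, was not called between the ages. Folr1 and Slc4a10 both have embryonic fragments replicate 1 as their lowest array, at 6.01 and 5.04.

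Genes that work beside the carriers were read from 5 lists. The lists are short, and their counts are to be read beside the shares over all tested genes. In embryonic fragments against rest of brain these shares were 28.9% higher and 37.2% lower. In adult against embryonic fragments they were 27.4% higher and 29.7% lower. Of 9 tested genes of the carbonic anhydrase family, 4 were higher and 5 lower in embryonic fragments than in rest of brain (median -1.32). Active forms make bicarbonate from carbon dioxide. The counts do not separate them from inactive forms such as Car10, which was among the lower. Car4, the membrane form of brain capillaries, was 110-fold higher (6.78 ± 0.17, adjusted p = 3.79e-09). Car3, under 4 on every embryonic fragment array, was at least 9.44-fold lower. The call of Car7 (0.96 ± 0.34) compares values under 4 in both groups. Between the ages 5 were higher and 1 lower in the adult (median 1.09), with Car10, a catalytically inactive form, at 4.0 ± 0.31 (adjusted p = 1.09e-05) and Car2, a cytosolic form, at -1.73 ± 0.27 (adjusted p = 0.000649).

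Of the sodium pump list 6 of 11 genes were tested. In the embryo 2 were higher and 4 lower in fragments (median -1.33), with the pump regulators Fxyd5 at 5.42 ± 0.21 (adjusted p = 4.91e-08) and Fxyd6 at -4.59 ± 0.62 (adjusted p = 0.000164). In the adult 3 were higher and none lower (median 1.03), led by Fxyd1, another regulator, at 3.53 ± 0.50 (adjusted p = 0.000366), or 2.91 ± 0.31 without embryonic fragments replicate 1 (adjusted p = 0.000175). Of 6 calcium pumps 1 was higher and 2 lower in embryonic fragments (median -0.09), namely Atp2a3, a pump of the endoplasmic reticulum (3.48 ± 0.21, adjusted p = 8.69e-07), Atp2b2 of the plasma membrane (-5.70 ± 0.42, adjusted p = 3.14e-06, with 1 fragment array under 4) and its relative Atp2b3. Between the ages 5 were higher in the adult and none lower (median 2.39), with Atp2b3 at 5.02 ± 0.74 (adjusted p = 0.000483), or 3.97 ± 0.21 without embryonic fragments replicate 1 and 5.64 without replicate 2. With the replicate block in the 2 groups the embryonic calls of Fxyd1, Atp2b3, Car12 and Car7 were lost (adjusted p = 0.0770, 0.0517, 0.0567 and 0.0692), and the copper chaperone Ccs gained a call (0.38, adjusted p = 0.0171).

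The WNK and SPAK kinases, which switch the Slc12 cotransporters, were 1 higher, 4 lower and 3 not called in embryonic fragments (median -0.23). Wnk1 was 1.70-fold higher (0.77 ± 0.13, adjusted p = 0.000675) and Wnk3 lower (-5.91 ± 0.14, adjusted p = 3.12e-09), with 1 embryonic fragment array under 4. Between the ages 3 were higher and 2 lower (median 0.14), with Cab39l, a scaffold of these kinases, at 2.59 ± 0.19 (adjusted p = 8.60e-06) and Wnk4 at -1.58 ± 0.22 (adjusted p = 0.000347), which leans on 2 adult arrays under 4. The other lower call, Wnk3, compares means under 4 and was lost with values under 4 set to 4 (-0.02, adjusted p = 0.891).

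Of 11 tested metal handling genes 5 were higher and 3 lower in embryonic fragments than in rest of brain (median 0.38). The copper transporter family members Slc31a2 (3.30 ± 0.22, adjusted p = 1.55e-06) and Slc31a1 (2.48 ± 0.11, adjusted p = 1.26e-07) were higher, as were the copper pump Atp7a (2.06 ± 0.15, adjusted p = 3.07e-06) and another copper chaperone, Atox1, (1.90 ± 0.14, adjusted p = 2.41e-06). The zinc-binding metallothioneins Mt2 (-2.07 ± 0.32, adjusted p = 0.000393) and Mt3 (-3.05 ± 0.51, adjusted p = 0.000690) were lower. Between the ages 3 were higher and 5 lower (median -0.75). Higher in the adult were Mt2, whose promoter is printed early on (2.56 ± 0.32, adjusted p = 0.000173), Mt1 (1.40 ± 0.36, adjusted p = 0.0101) and Mtf1, the zinc-sensing factor (1.33 ± 0.19, adjusted p = 0.000351), and Mt3 was among those lower (-2.70 ± 0.51, adjusted p = 0.00198). Averaging all probe sets of Mtf1 ended its call (0.07, adjusted p = 0.585).

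**Figure D5:**
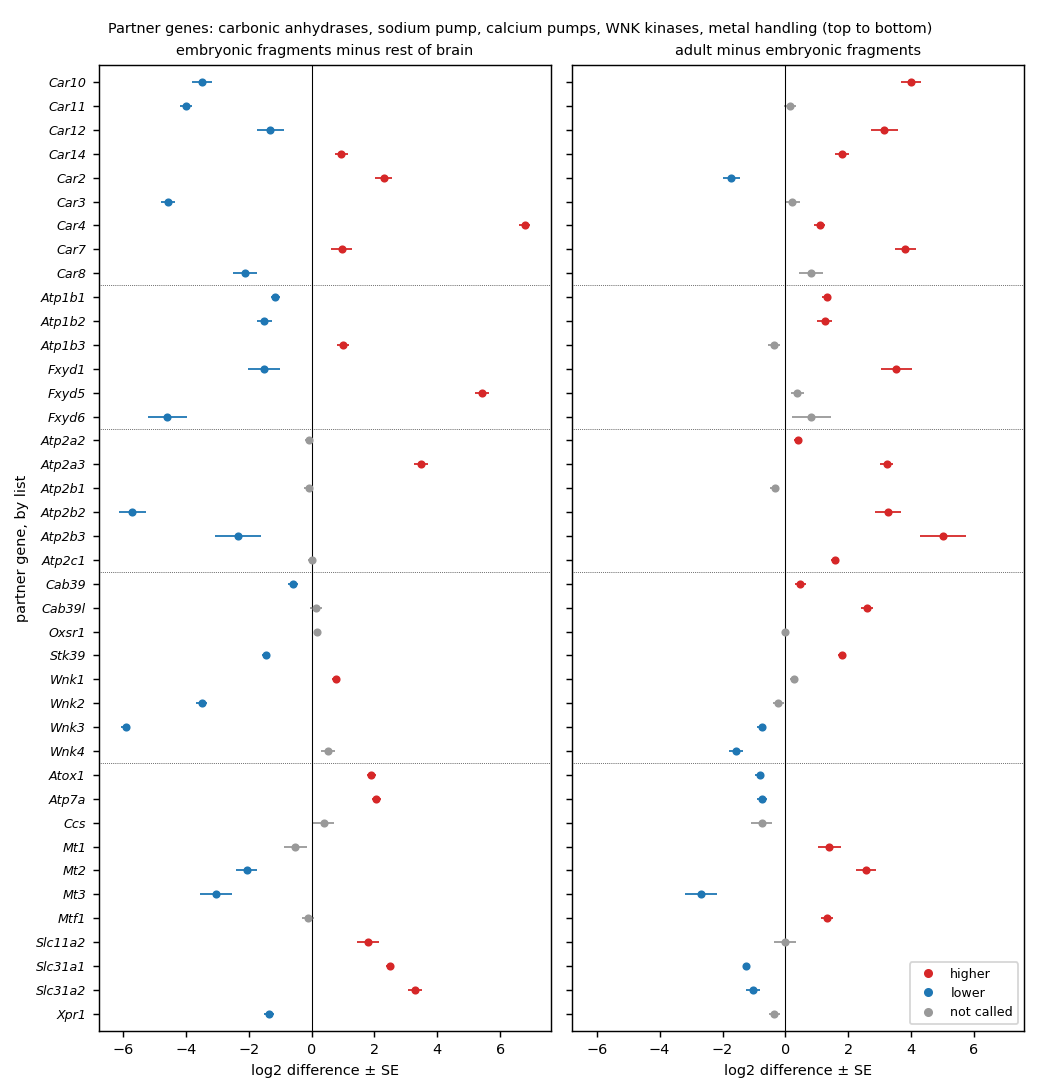
Log2 differences with their SE for the tested genes of the 5 lists, in embryonic fragments minus rest of brain (left) and adult minus embryonic fragments (right), red for called higher, blue for called lower and grey for not called. Car4 lies at 6.78 on the left, and the calcium pumps Atp2b3 and Atp2a3 at 5.02 and 3.22 on the right.

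Of the 69 genes, 25 did not pass the filter and were not tested, 7 of them in the Slc26 family. They were Slc12a1, Slc12a3, Slc12a8, Slc24a1, Slc24a2, Slc24a4, Slc26a1, Slc26a10, Slc26a3, Slc26a4, Slc26a5, Slc26a6, Slc26a8, Slc30a2, Slc30a8, Slc39a2, Slc39a4, Slc39a5, Slc4a11, Slc4a8, Slc4a9, Slc8a2, Slc9a3, Slc9a4 and Slc9a8. Closest to the filter, the third highest array of Slc9a8 read 3.40 and that of Slc39a4 read 3.35. Just inside it, by the same measure, were Slc30a3 at 5.09 and Slc9a5 at 5.61. The passing share was 11 of 14 for Slc39, 8 of 10 for Slc30 and 3 of 10 for Slc26.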

How the data were processed

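The authors deposited log2 values for each probe set on each array. The submitters' processing notes name GCRMA 2.6.0 and R 2.4.1. That they are log2 was read from their range. Quantile normalization makes the arrays' distributions nearly equal (medians 3.58 to 3.67), so a change in total RNA cannot be seen. Raw scans and their dates were not analysed here.

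Of 45101 probe sets, 34958 name a single gene in the platform annotation. limma 3.58.1 (lmFit and eBayes, 2-sided) in R 4.3.3 was fitted to all 9 arrays with group as the factor, adjusting by Benjamini-Hochberg over 12009 genes per comparison, at 8.43 degrees of freedom. The fit was also run on simulated arrays with unpaired noise and far fewer changed genes than were called here. That setting differs from these data, so no conclusion is drawn from it. Folds were taken from the log2 differences. Members shown by array were called ones without overlap, a difference of at least 1 and a mean of at least 6, at most 10 in each direction, and the highest per family in embryonic fragments; of the other lists, the largest called difference each way. Further members and genes named with values were chosen after their values were seen. Members and lists were chosen with earlier results of these data known.

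Deviations of same-numbered arrays from their group means correlated at 0.19, 0.20 and 0.22 between embryonic fragments and rest of brain, over all tested genes, so the numbers were taken to pair these samples. The number of arrays limits the precision, and no pair of arrays held identical values. The alternatives were normalization, filters, probe set choice, array weights, a replicate block and leaving out each array.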

Additional observations from a re-analysis of the deposited data

How the results depend on the processing

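Under 21 alternative settings every count of called members and partner genes stayed within 1.5 times its value. Leaving out 1 array at a time gave 11 to 14 members higher and 14 to 17 lower in embryonic fragments against rest of brain, and 13 to 15 higher and 7 to 9 lower in adult against embryonic fragments. With the replicate block, by which embryonic fragments and rest of brain are paired, the 2 groups gave 14 higher and 17 lower; calls it changed are given beside the results, and it changed no other embryonic call of a member. Between the ages the numbers did not pair the samples (correlations 0.03, -0.08 and 0.21), and the block gave 12 higher and 8 lower.

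Directions turned where either value was called as follows; values differ by probe set, and the cause was not tested. Averaging all probe sets of a gene gave Slc30a1 -0.07 and Slc11a2 -1.09 between the ages, Cab39 0.22 in the embryo and -0.08 between the ages, and Slc30a7 0.64 in adult fragments against rest of brain. Without probe sets whose names carry the suffix s, x or a, Slc20a1 came to 1.64 in the embryo and Atox1 to 1.00 between the ages. Setting values under 4 to 4 gave Car7 0.00 in the embryo, by construction. Of 910 member values per comparison, 11 lost and 23 gained a call in the embryo, and 49 lost and 15 gained one between the ages. Cyclic loess moved the median of all genes in adult fragments against rest of brain from -0.17 to -0.03.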
